A study of Oryctolagus cuniculus with 16 samples.

Results

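The insulin-like growth factor (IGF) axis was followed across 16 libraries of poly(A) RNA from rabbit vagina (New Zealand White females, 17 to 19 weeks old). The genes were taken by symbol from a list of 10, made up of 2 ligands, 1 receptor, 6 binding proteins and the adaptor IRS4. Of these, 6 were found among the 13001 named genes of the counts table, namely IGF1, IGF1R, IGFBP4, IGFBP5, IGFBP6 and IRS4. The other 4 symbols (IGF2, IGFBP2, IGFBP3 and IGFBP7) are not analysed here. IRS4 was chosen by its high value in 1 acellular library, so its levels are given as a description with no test. All 6 genes passed the filter on low counts, which kept 10942 genes. IRS4 passed it with 10 or more counts in only 3 libraries, 2 of them acellular.

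The study asks how the vaginal wall heals beside grafts. Control animals (n = 6, numbered 2, 9, 16, 24, 25 and 29) had a native vagina. Sham animals (n = 3, numbered 11, 12 and 14) were sham-operated. The acellular animals (n = 3, numbered 6, 8 and 10) received a graft without tissue particles, and the PLATE animals (n = 4, numbered 1, 5, 9 and 13) a graft with autologous tissue particles. Tissue of the acellular and PLATE animals was taken at 10 mm from the graft zone, and the labels give no such distance for sham and control, so sampling site and graft cannot be told apart in comparisons with those groups. The labels give no time after surgery, and name no genetic change in any animal. A control animal and a PLATE animal both carry the number 9, and the design text counts 16 rabbits for the 16 libraries.

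Total counts per library ranged from 20992063 to 30695000. A pooled line for genes without a symbol took 22.9 to 28.5% of them and was left out. Levels are given in CPM, that is, counts scaled to an equal effective library size over named genes (trimmed mean of M values). They are compared between libraries and not between genes, since no transcript lengths were used. Markers of the vaginal wall were present in the libraries, with fibroblast markers summing to between 12200 and 54300 CPM. Control 2 was low in columnar epithelium markers (13.2 CPM summed, against 182 or more in the graft and sham libraries) and high in smooth muscle markers (156000 CPM summed). It also had the lowest scaling factor of all libraries, 0.5917, which raises its CPM. The next lowest was 0.9167, in PLATE 1. PLATE 1 held 8850 CPM of leukocyte markers, against at most 1460 in the acellular, 1340 in the control and 859 in the sham libraries. Where leaving out a library moved a fold change named below by over 1.5 times, the value without it is given.

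IGF1 is a secreted growth factor that fibroblasts and smooth muscle cells of many tissues make locally, and it acts through the tyrosine kinase receptor IGF1R. Binding proteins of the IGFBP family hold IGFs in the extracellular fluid and the matrix, prolong their life and limit or direct their access to the receptor, and proteases that cut the binding proteins set the ligand free. Inside the cell, receptors of the insulin family signal through insulin receptor substrates, of which IRS1 is widespread and IRS4 is found in few adult tissues. The axis is known for its part in growth of the oestrogen-responsive reproductive tract and in wound repair.

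By group mean, IGF1 was highest in sham and lowest beside acellular grafts. The 3 sham libraries measured 951, 434 and 302 CPM (sham 11, 12 and 14), and the 3 acellular libraries 159, 252 and 320 CPM (acellular 6, 8 and 10). PLATE libraries measured 244, 385, 245 and 459 CPM (PLATE 1, 5, 9 and 13), and the 6 controls ran from 153 through a median of 391 to 666 CPM. The groups overlapped in every comparison, since sham 14 lay below acellular 10 and the controls, at 153 to 666 CPM, overlapped both groups. Group means ordered as sham (562 ± 343 CPM, SD, n = 3), control (379 ± 192, n = 6), PLATE (333 ± 106.8, n = 4) and acellular (244 ± 80.8, n = 3), and neighbours in this order differed by less than the larger of their SDs.

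The widest step was between acellular and sham, a log2 fold change of -1.20 ± 0.524 (± SE from the fit) with an unadjusted p of 0.0363 and an adjusted p of 0.902 in the quasi-likelihood test of edgeR. Without sham 11, the library with the most IGF1 of all 16, this step was -0.58. Against control, IGF1 stood at -0.64 ± 0.46 in acellular (adjusted p = 0.881), which was -0.40 without control 16 and -0.41 without acellular 6. In sham it stood at 0.57 ± 0.439 (adjusted p = 0.963), which was -0.02 without sham 11 and 0.87 without sham 14. PLATE against sham gave -0.75 ± 0.48 (adjusted p = 0.698), and -0.16 without sham 11. PLATE against acellular gave 0.45 ± 0.488 (adjusted p = 0.905), which was 0.22 without acellular 6, 0.26 without PLATE 13 and 0.70 without acellular 10. In a bulk tissue sample a smaller number of cells of a type and less RNA in each of them cannot be told apart, for IGF1 and for the genes below.

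IGF1R, the receptor kinase that binds IGF1, was highest in sham by its mean and overlapped between all groups. Sham libraries measured 94.5, 72 and 68.8 CPM in the same order of animals, acellular libraries 81.5, 52.6 and 57.1 CPM, and controls ran from 38 through 48.7 to 90.2 CPM. PLATE 5, 9 and 13 lay close together at 73.1, 64.6 and 64.9 CPM, and PLATE 1 was the lowest of all 16 at 17.3 CPM. Means were 78.4 ± 14 CPM in sham, 63.7 ± 15.5 in acellular, 57.1 ± 19.6 in control and 55 ± 25.4 in PLATE. Sham stood 0.46 ± 0.356 above control on the log2 scale (adjusted p = 0.963), and PLATE -0.51 ± 0.389 against sham (adjusted p = 0.73). The latter was -0.22 without PLATE 1.

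**Figure D1:**
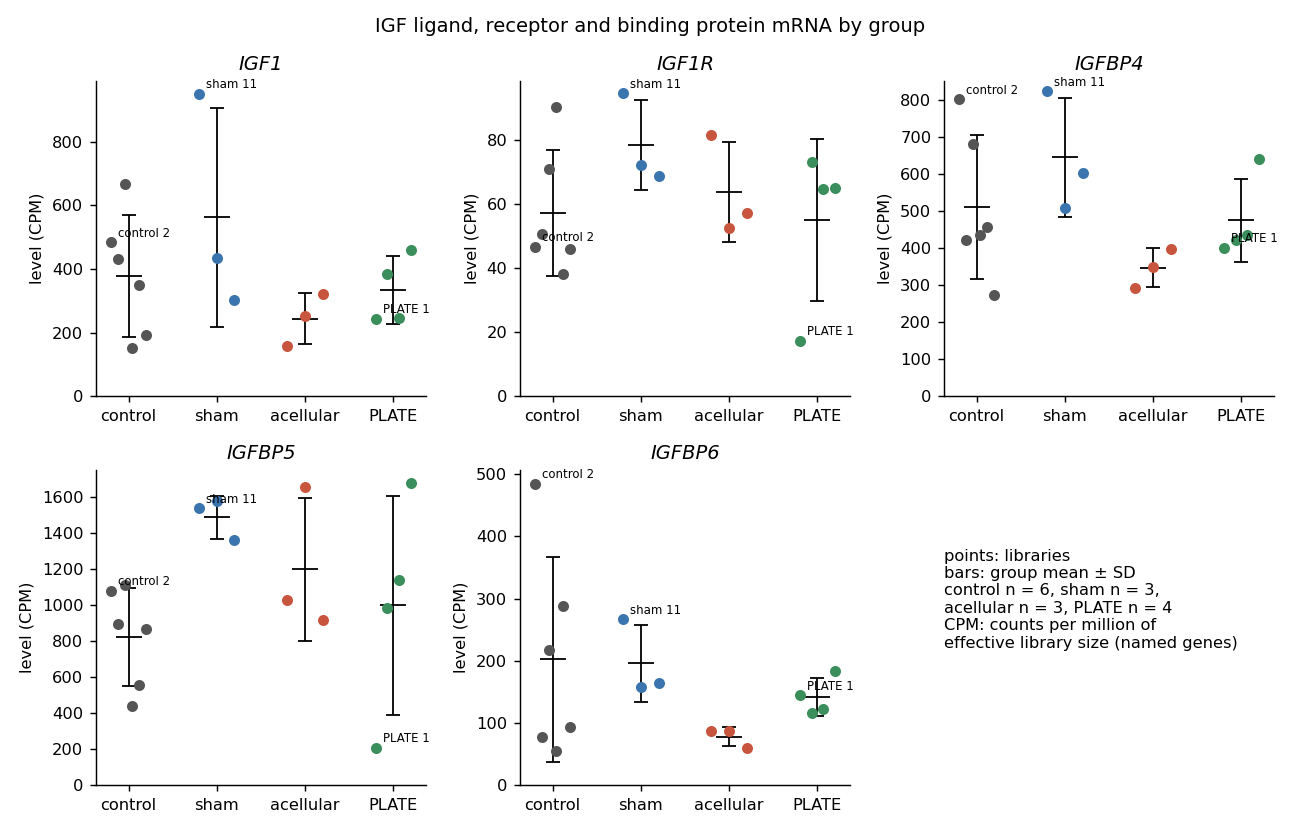
Level in CPM (vertical axis, from 0) of the 5 IGF axis genes other than IRS4, by group; points are libraries and bars the group mean ± SD. The 3 acellular libraries of IGFBP4 (293 to 398 CPM) and IGFBP6 (60.1 to 87.2 CPM) lie below every sham and PLATE library, and PLATE 1 is lowest of all for IGF1R and IGFBP5.

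IGFBP4, which inhibits IGF action in many cell systems, followed IGF1 across libraries. Acellular libraries measured 293, 350 and 398 CPM (acellular 6, 8 and 10), and sham libraries 824, 509 and 602 CPM (sham 11, 12 and 14). PLATE libraries measured 401, 423, 436 and 641 CPM (PLATE 1, 5, 9 and 13). All acellular values lay below all sham values and, by a narrow margin of 398 against 401 CPM, below all PLATE values. Controls ran from 273 through 446 to 803 CPM and covered every other library but sham 11. Acellular against sham gave a log2 fold change of -0.89 ± 0.339, with an unadjusted p of 0.0185 and an adjusted p of 0.902. The step was -0.56 ± 0.299 against control (adjusted p = 0.857), and -0.37 without control 2. PLATE stood 0.45 ± 0.318 above acellular (adjusted p = 0.875; 0.28 without PLATE 13) and at -0.44 ± 0.313 against sham (adjusted p = 0.715; -0.24 without sham 11).

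IGFBP6, a binding protein that prefers IGF2 over IGF1, had the largest steps of the 5 tested members in the acellular comparisons. Acellular libraries measured 87.2, 86.2 and 60.1 CPM, sham libraries 267, 157 and 164 CPM, and PLATE libraries 144, 115.8, 123 and 184 CPM. Each acellular library therefore held less IGFBP6 than each sham and each PLATE library. Controls were spread widely, from 54.8 through 155 to 485 CPM, the highest being control 2, whose low scaling factor raises its CPM. Control 24, control 9 and control 29, at 54.8, 77.2 and 93.8 CPM, lay in or near the acellular range. The log2 fold change of acellular against control was -1.38 ± 0.563 (unadjusted p = 0.0269, adjusted p = 0.827), and -0.89 without control 2. It was -1.33 ± 0.619 against sham (unadjusted p = 0.0478, adjusted p = 0.902). PLATE stood 0.86 ± 0.581 above acellular (adjusted p = 0.875), at -0.51 ± 0.488 against control (adjusted p = 0.998; -0.05 without control 2) and at -0.47 ± 0.566 against sham (adjusted p = 0.821; -0.19 without sham 11).

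IGFBP5, the binding protein that attaches to extracellular matrix, did not share this order. Sham libraries were high and close together, at 1540, 1580 and 1360 CPM, and the controls ran from 440 through 881 to 1110 CPM, so that each sham library lay above each control. Acellular libraries measured 1030, 1660 and 918 CPM, and PLATE libraries 207, 982, 1140 and 1680 CPM (PLATE 1, 5, 9 and 13). PLATE thus held both the lowest and the highest IGFBP5 level of the 16 libraries. The SD was 119 CPM in sham and 609 CPM in PLATE. Sham against control gave a log2 fold change of 0.86 ± 0.445 (unadjusted p = 0.0726, adjusted p = 0.963), acellular against control 0.54 ± 0.448 (adjusted p = 0.892; 0.24 without acellular 8) and PLATE against sham -0.58 ± 0.49 (adjusted p = 0.755). The last was -0.24 without PLATE 1 and -0.94 without PLATE 13.

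None of the 5 members other than IRS4 passed the threshold, an adjusted p under 0.05 over all 10942 genes, in any of the 6 comparisons between groups or in the joint test of the 4 groups. The background was the same, since edgeR called 0% of all genes in each of these 7 comparisons. DESeq2 and limma voom with library quality weights also called 0 of the 5 members. They called between 0 and 17 (DESeq2) or 0 and 72 (voom) of all genes in a comparison of 2 groups. At an unadjusted p under 0.05, 3 of the 5 (IGF1, IGFBP4 and IGFBP6) differed between acellular and sham, where 4.87% of all genes did. Between acellular and control 1 of 5 (IGFBP6) did, where 6% of all genes did. In the other comparisons 0 of 5 did, where the background was 2.98% for sham against control, 4.39% for PLATE against control, 7.5% for PLATE against sham, 4.71% for PLATE against acellular and 4.8% for the joint test. The 3 members at acellular against sham fell to 0 when sham 11 or acellular 6 was left out and to 1 without acellular 8. The single member at acellular against control fell to 0 without control 2 or without any 1 of the 3 acellular libraries.

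Pairs of groups without overlap were counted in the same way. Sham lay above control without overlap for 1 of 5 members (IGFBP5) and for 1.9% of all genes. Acellular lay below sham without overlap for 2 of 5 (IGFBP4 and IGFBP6) and for 10.5% of all genes, and PLATE above acellular for the same 2 genes and for 3.27% of all genes. The acellular libraries are shared by the last 2 comparisons. The median log2 fold change of the 5 members was -0.89 for acellular against sham, where all 5 were lower, and the median of all genes was 0.02. It was -0.56 for acellular against control (3 of 5 lower, all genes -0.03), 0.46 for sham against control (4 of 5 higher, all genes -0.06) and -0.51 for PLATE against sham (all 5 lower, all genes 0.03). For PLATE against acellular it was 0.45 (3 of 5 higher) and for PLATE against control -0.11 (4 of 5 lower), with 0.02 and -0.01 for all genes. Of the 30 fold changes, the 11 smaller than 0.4 in size are not named singly. They lay between -0.32 and 0.33, and their 95% intervals all included 0.

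**Figure D2:**
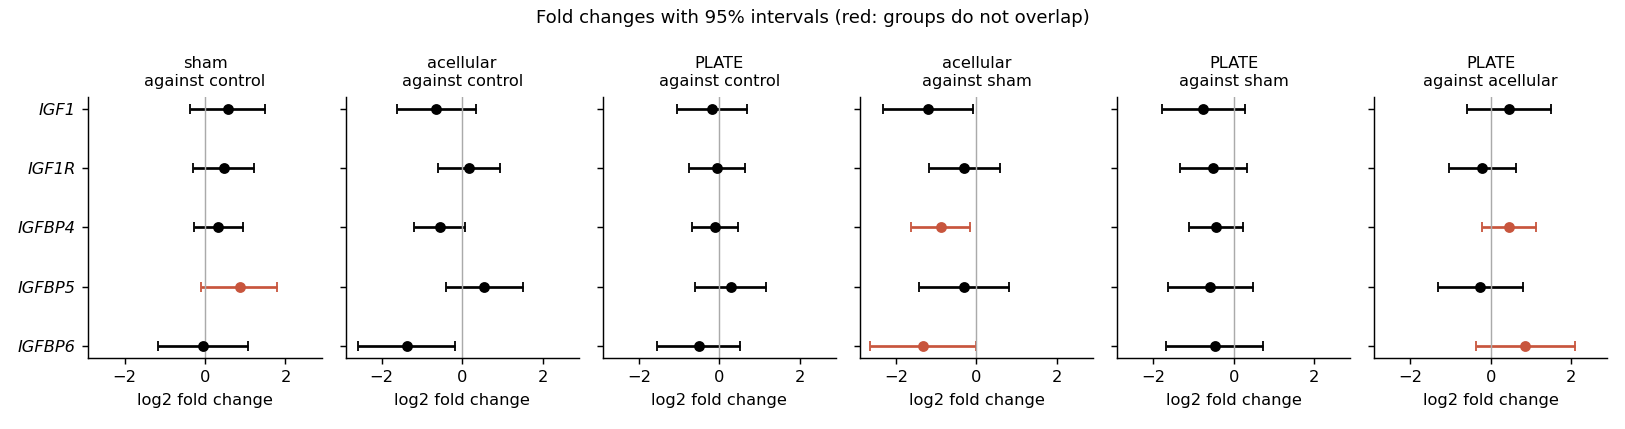
Log2 fold change (horizontal axis) with its 95% interval for 5 members in the 6 comparisons between groups, from the fit over all genes; red marks pairs of groups that do not overlap. The intervals of IGF1, IGFBP4 and IGFBP6 for acellular against sham and of IGFBP6 for acellular against control lie below 0, and none of these passed adjustment over all genes.

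The balance between binding proteins could be read within each library, where scaling between libraries plays no part. The count ratio of IGFBP5 to IGFBP6 was 11.8, 19.2 and 15.3 in acellular 6, 8 and 10. In the 13 other libraries it was at most 11.6 (control 9), with a median of 8.29. Sham libraries gave 5.76, 10.1 and 8.29, and PLATE 5, 9 and 13 gave 8.48, 9.3 and 9.14. PLATE 1 was lowest at 1.43, and controls ran from 1.93 through 6.57 to 11.6. The 3 acellular libraries were therefore the 3 highest of the 16, by a narrow margin for acellular 6 over control 9. This was the ratio with least overlap among 5 that were computed, so it is a description without a test. The IGFBP5 to IGFBP4 ratio, at 2.31 to 4.72 in acellular, overlapped with control (1.01 to 3.18) and sham (1.87 to 3.11). The ratio of IGF1 to IGFBP4 lay between 0.545 and 0.806 in acellular, inside the control range of 0.351 to 1.02.

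**Figure D3:**
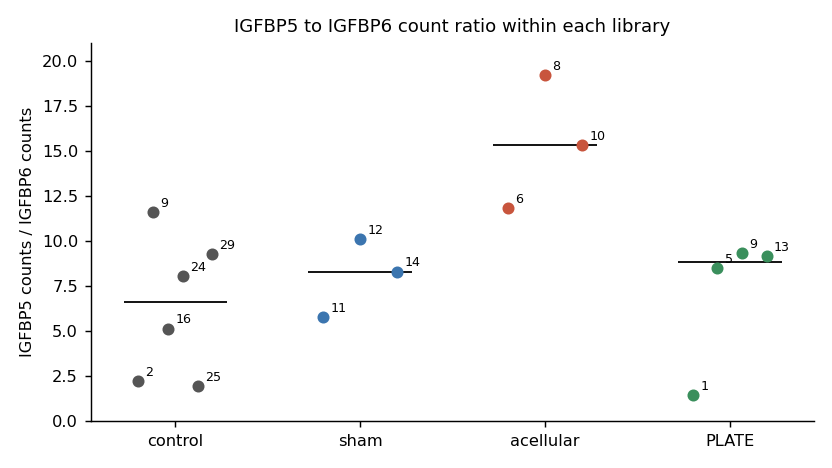
Ratio of IGFBP5 counts to IGFBP6 counts in each library (vertical axis, no unit), by group, with animal numbers beside the points and lines at group medians. The acellular libraries, at 11.8 to 19.2, are the 3 highest and PLATE 1, at 1.43, is the lowest.

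Across the 16 libraries the correlation of log2 CPM with IGF1 was 0.81 (Pearson) and 0.77 (Spearman) for IGFBP4 and 0.65 and 0.66 for IGFBP6, and IGFBP4 and IGFBP6 correlated at 0.75 and 0.78. IGF1R correlated with IGF1 at 0.17 and 0.13, and with IGFBP5 at 0.66 and 0.37. PLATE 1 was the lowest library for both IGF1R and IGFBP5, at 17.3 and 207 CPM, and their correlation without it was not computed. All these correlations describe 16 libraries that share a scaling and differ in tissue composition. By a search of all tested genes for the pattern most like IGF1, the 5 with the highest Pearson correlation were HIPK1, a nuclear kinase (0.85), IGFBP4 (0.81), ADGRA2, an adhesion receptor of blood vessels (0.80), ARSL (0.80) and HTRA4, a serine protease (0.79). HIPK1, IGFBP4, ADGRA2 and ARSL shared their highest library with IGF1, sham 11, at 670, 824, 175 and 20.9 CPM. The exception was HTRA4, which was highest in control 2 at 25.1 CPM and at 22 CPM in sham 11.

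IGFBP4 and IGFBP6 also moved with the smooth muscle and fibroblast marker levels of the libraries. IGFBP6 correlated with the mean log2 CPM of smooth muscle markers at 0.74 (Pearson) and 0.66 (Spearman) and with fibroblast markers at 0.68 and 0.59. For IGFBP4 the values were 0.71 and 0.75 with smooth muscle and 0.73 and 0.72 with fibroblast markers. IGFBP6 also correlated with skeletal muscle markers at 0.61 and 0.61, and with Schwann cell and nerve markers at 0.27 and 0.29. Its correlations were negative with columnar epithelium (-0.58 and -0.33), stratified squamous epithelium (-0.4 and -0.3), endothelium (-0.48 and -0.49) and leukocyte markers (-0.4 and -0.61). With smooth muscle markers IGFBP5 correlated at -0.05 and 0.01, and IGF1 at 0.40 and 0.36. With fibroblast markers IGFBP5 correlated at 0.16 and 0.44, and IGF1 at 0.56 and 0.52. Of the 8 smooth muscle markers 6 had a row, and their sum was 13200 to 17900 CPM in acellular, 37000 to 62800 in sham, 29000 to 47600 in PLATE and 9100 to 156000 in control. All 8 fibroblast markers had a row, with sums of 12200 to 20100 CPM in acellular, 26000 to 54300 in sham, 25600 to 50000 in PLATE and 17900 to 48700 in control. Both sums were thus lower in each acellular library than in each sham and PLATE library.

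With the smooth muscle mean as a covariate in the fit, the acellular against sham values were -0.23 for IGFBP6, -0.44 for IGFBP4 and -0.93 for IGF1. Those against control were -0.16, -0.12 and -0.41. PLATE against acellular gave 0.15 for IGFBP6. Since no acellular library overlapped sham or PLATE in these markers, tissue composition and graft group cannot be told apart here. With columnar epithelium markers as the covariate, the acellular against sham values were -1.12 for IGFBP6, -0.79 for IGFBP4 and -1.19 for IGF1.

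**Figure D4:**
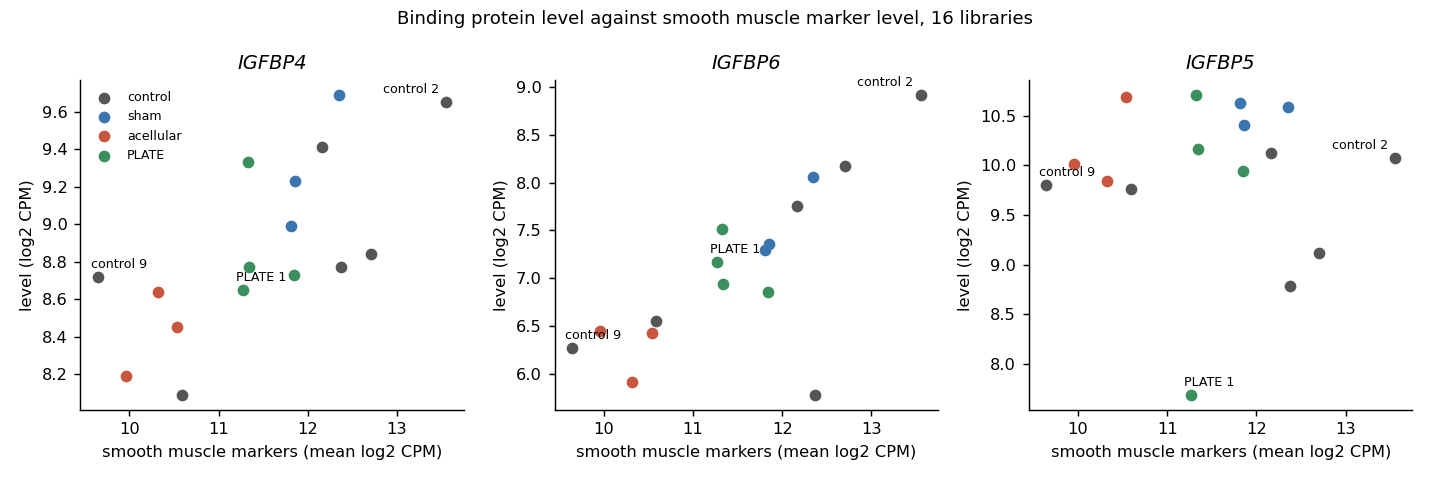
Level in log2 CPM (vertical axis) of IGFBP4, IGFBP6 and IGFBP5 against the mean log2 CPM of 6 smooth muscle markers (horizontal axis), 1 point for each of 16 libraries. The Pearson correlation is 0.71 for IGFBP4, 0.74 for IGFBP6 and -0.05 for IGFBP5, with PLATE 1 far below the other libraries in IGFBP5.

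IRS4, the adaptor found in few adult tissues, was close to undetected in most libraries and high in 1. Acellular 6 held 143 counts (95% Poisson interval 121 to 168, counting error only), acellular 8 held 15 (8.4 to 24.7) and acellular 10 held 3 (0.619 to 8.77). Sham 11, 12 and 14 held 16, 5 and 8 counts, PLATE 1, 5, 9 and 13 held 2, 6, 6 and 5, and the controls between 1 and 9 with a median of 2. Acellular 6 thus stood alone, with 62.7% of the 228 counts of all libraries and 88.8% of those of its group. In CPM, acellular 6 measured 6.52, which was 6.47-fold the next library, acellular 8 at 1.01. Acellular 10, at 0.148 CPM, lay inside the control range of 0.04 to 0.397 CPM. The acellular mean was 2.56 ± 3.46 CPM (SD, n = 3), and 0.578 CPM without acellular 6.

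In the 3 groups not used to choose IRS4, sham averaged 0.438 ± 0.27 CPM, PLATE 0.238 ± 0.0779 and control 0.154 ± 0.134. Each of these 13 libraries held 1 to 16 counts, and the groups overlapped in CPM. No test between them is given, since IRS4 passed the filter on low counts through acellular 6, acellular 8 and sham 11. Its dispersion was also estimated with the acellular libraries.

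The insulin receptor INSR was also highest in acellular 6. The share of all genes with a like excess in that library was not computed. INSR measured 212 CPM (4652 counts) in acellular 6 and 26.3 to 103.1 CPM, with a median of 87.6, in the 15 others. IRS1, the widespread adaptor of the same family, measured 58.5 CPM in acellular 6, beside the highest other value of 58.6. IGF1R, at 81.5 CPM, lay within the range of the others (17.3 to 94.5). IRS1 and COL4A5 are named after their values were seen. INSR is named by its p in acellular against control, a comparison that includes acellular 6. In the RefSeq order of rabbit genes (assembly mOryCun1.1, used for neighbours only) the nearest named gene with a row on one side of IRS4 is COL4A5, a basement membrane collagen chain. It measured 172 CPM in acellular 6 and 87.2 to 793 CPM elsewhere. The nearest on the other side is GUCY2F, whose level is not given here.

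The 5 genes most like IRS4 over the 16 libraries were PIANP (Pearson 0.79, Spearman 0.58), ELF2 (0.79 and 0.56), MST1 (0.79 and 0.39), LIN52 (0.78 and 0.78) and WASF1 (0.77 and 0.66). IRS4 was chosen for its value in acellular 6 and the search included that library, so genes that peak there were favoured. Acellular 6 was the highest library for PIANP (9.3 CPM, others at most 3.3), MST1 (6.61, at most 2.42), WASF1 (15.1, at most 7.78) and ELF2 (154, at most 132). LIN52 was the exception, with 14 CPM in acellular 6 and 14.5 in acellular 8. Without acellular 6 the Pearson correlations were 0.54, 0.53, 0.42, 0.76 and 0.53 in the order given first.

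**Figure D5:**
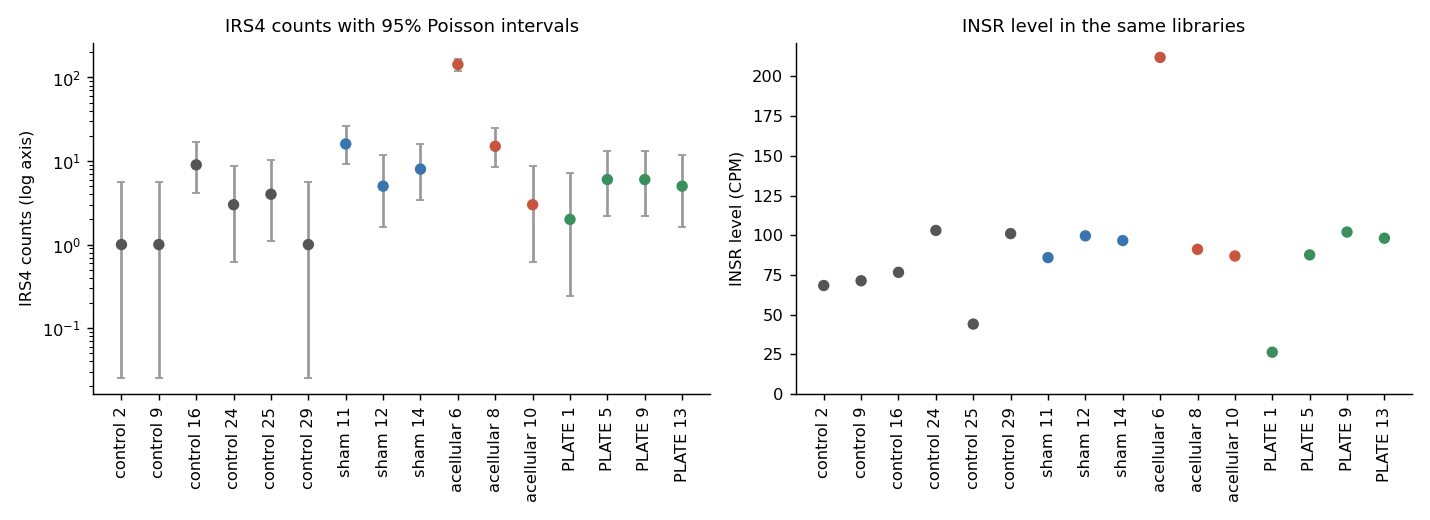
Left, IRS4 counts in each library on a log axis with 95% Poisson intervals; right, INSR level in CPM from 0 in the same libraries, coloured by group. Acellular 6 is highest in both panels, with 143 IRS4 counts and 212 CPM of INSR.

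Beyond the members, 55 genes of the wider insulin and IGF pathway were listed, of which 44 had a row and 39 were tested. In no comparison did any of the 39 pass adjustment over all genes. Their median log2 fold changes lay near those of all genes, at 0.01 for acellular against control (21 higher, 18 lower), -0.06 for acellular against sham (18 higher, 21 lower) and 0.04 for PLATE against acellular (21 higher, 18 lower). At an unadjusted p under 0.05, 2 of 39 were higher in PLATE against control, against sham and against acellular each, 1 was lower in acellular against control and 0 in the remaining pairs. The shares of all genes at that p, in either direction, were 4.39%, 7.5% and 4.71% for the PLATE comparisons and 6% for acellular against control, so that these counts lie near the background. The ligand INS (insulin) had 1 count, and the binding proteins IGFBP1 and IGFBPL1 had 2 and 9 counts, over all 16 libraries.

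The pathway genes named below are the 2 with the smallest p in each comparison, given as values. Of the proteases that act on binding proteins and their inhibitors 7 were tested, and PAPPA2, HTRA1, ADAM12 and STC1 are named by this rule. PAPPA2, a protease that cuts IGFBP3 and IGFBP5, measured 0.958, 0.134 and 0.592 CPM in acellular 6, 8 and 10 (21, 2 and 12 counts), against 2.37 ± 2.14 CPM in control and 2.21 ± 1.97 in sham. Its log2 fold change was -2.04 ± 0.851 against control (adjusted p = 0.827) and -1.94 ± 0.919 against sham (adjusted p = 0.902; -0.90 without sham 11). With the smooth muscle covariate these were -0.93 and -0.79. HTRA1, a secreted serine protease that cuts IGFBP5 among other proteins, measured 1640, 361, 460 and 490 CPM in PLATE 1, 5, 9 and 13. In acellular it measured 203, 279 and 353 CPM, so that the 2 graft groups did not overlap, by a narrow margin of 353 against 361 CPM. PLATE lay above acellular without overlap for 3.27% of all genes, and HTRA1 was named for its small p in this comparison. PLATE against acellular came to 1.40 ± 0.45 on the log2 scale (adjusted p = 0.875), which was 0.65 with PLATE 1 left out. Against control it was 0.87 ± 0.36 (adjusted p = 0.998), and 0.11 without PLATE 1.

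ADAM12, a metalloproteinase that cuts IGFBP3 and IGFBP5, measured 34.5 CPM in PLATE 1 and 0.732 to 2.12 CPM in the other PLATE libraries. PLATE against acellular gave 3.96 ± 1.57 for it (adjusted p = 0.875), and 1.29 without PLATE 1. STC1, stanniocalcin, an inhibitor of PAPPA proteases, averaged 20.3 ± 16.2 CPM in sham and 74 ± 98.5 in control, a log2 fold change of -1.86 ± 1.12 (adjusted p = 0.963) that was -0.76 without control 9.

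Among receptors and adaptors, INSR stood at 0.75 ± 0.373 in acellular against control (adjusted p = 0.84), and at 0.20 without acellular 6. PIK3R1, the regulatory subunit of PI3 kinase, averaged 281 ± 51.4 CPM in sham and 192 ± 51.3 in control (log2 fold change 0.55 ± 0.313, adjusted p = 0.963). SH2B2, an adaptor of the insulin receptor, stood at 1.69 ± 0.56 in PLATE against control (adjusted p = 0.998), and at 0.49 without PLATE 1. For INSRR, the insulin receptor-related receptor, PLATE libraries ranged from 10 to 18 counts and sham libraries from 3 to 10, a log2 fold change of 1.65 ± 0.704 (adjusted p = 0.657; 2.48 without sham 11). Of the RNA-binding proteins named for IGF2 mRNA, IGF2BP3 stood at 2.22 ± 0.869 in PLATE against sham (adjusted p = 0.657), and at 0.31 without PLATE 1. IGF2BP2 stood at 0.88 ± 0.432 in acellular against sham (adjusted p = 0.902), and at -0.01 with the smooth muscle covariate.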

How the data were processed

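RNA of 16 animals, per the series' design text, was sequenced from stranded poly(A) libraries. Per the submitters' processing notes, the authors used FastQC, HISAT2 2.2.1 and featureCounts. The genome build, annotation and strand setting are not given in the sources used here. The deposited table holds raw counts per gene symbol, and a pooled line without symbol (22.9 to 28.5% of a library) was left out. A column was given to a sample where its final index (S49 and so on) equalled that of the sample's description, as the middle number differed. Animal numbers differ within each group, so replicates are separate animals.

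The 10942 genes kept by filterByExpr (minimum count 10) entered 1 edgeR 4.0.16 model (R 4.3.3; quasi-likelihood F test) with TMM scaling, a mean per group and 12 residual degrees of freedom. P-values were Benjamini-Hochberg adjusted over all genes, with a threshold of 0.05. The SE is the log2 fold change divided by the root of F. Log2 CPM used a prior count of 2. The fit was also run on simulated data, with changes larger than any named here for a member other than IRS4. Those data were drawn without outlying libraries. The run therefore does not show how the fit handles smaller changes or such libraries.

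Members and lists were chosen with earlier results of these data known. Named genes are the 6 members, the 2 pathway genes with the smallest p in each comparison and the 5 genes most like IGF1 and IRS4. Tests of IRS4 between groups other than acellular had been planned and are not given. It passed the filter through acellular 6, acellular 8 and sham 11. Fold changes of members are named from 0.4 in size. Alternatives were DESeq2 size factors, no filter, DESeq2 1.42.0 and limma 3.58.1 voom with library quality weights. Others were fits of 2 groups, covariates, another denominator and libraries left out. Sequences and IGF2, IGFBP2, IGFBP3 and IGFBP7 are not analysed here.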

Additional observations from a re-analysis of the deposited data

Results flagged for a closer look

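A library lay far from the others of its group, by the gap to its nearest neighbour over the group's range, in 9 of 32 groups of 4 or 6 libraries examined for the members and the named pathway genes. The limit is one that about 1 in 20 groups pass where values are normally distributed. That rate does not hold here, since the pathway genes were named for their smallest p and all genes share the same libraries. The share of all genes past the limit was not computed. Among the members, IGF1R in PLATE 1 was low at 17.3 CPM (nearest 64.6) and IGFBP4 in PLATE 13 was high at 641 CPM (nearest 436).

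PLATE 1 was also high in pathway genes. HTRA1 measured 1640 CPM (nearest 490), ADAM12 34.5 (nearest 2.12), SH2B2 13.1 (nearest 2.66) and IGF2BP3 9.64 (nearest 1.08). The library held 8850 CPM of leukocyte markers, whose part in these values was not tested. In control 9, STC1 measured 272 CPM (nearest 54.4) and IGF2BP2 46 CPM (nearest 20.1). In control 24, ADAM12 measured 10.2 CPM (nearest 1.28). The acellular and sham groups, with 3 libraries each, were too small for this measure, so acellular 6 is not covered by it.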

How the results depend on the processing

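None of the 5 members other than IRS4 was called in any comparison under any of the 25 alternatives, libraries left out included. Of the fold changes named, 2 changed sign. IGF1 in sham against control was -0.02 without sham 11 (0.57 with it; -0.02 to 0.87 over libraries left out), and IGF2BP2 in acellular against sham was -0.01 with the smooth muscle covariate. The causes were not tested. The smallest adjusted p for a member was 0.0881, for IGFBP6 in acellular against sham by limma voom with library quality weights. The 3 members at an unadjusted p under 0.05 in that comparison numbered 0 with the smooth muscle covariate, and 0 to 3 with libraries left out. Without control 2, control 9 and PLATE 1, the values were -1.19 for IGF1, -0.88 for IGFBP4 and -1.32 for IGFBP6. By the same weighted voom fit, IGFBP6 stood at -0.88 in acellular against control and -0.02 in PLATE against control. No paired analysis was possible because the design text counts 16 rabbits for the 16 libraries. IRS4 depth, 1 to 16 counts in 15 libraries, limits what can be seen of it.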

Other observations

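Among the genes that passed the filter on low counts, a single library far above the rest, as for IRS4, was uncommon outside PLATE 1. That filter drops genes with counts in too few libraries. Genes high in 1 library and near 0 in the others can therefore be missing from the values below. Of the 10942 genes tested, 172 had a library with at least 100 counts that stood at least 4-fold above the next library, and 157 of these had it in PLATE 1. In acellular 6 it was 1 gene, IRS4. Control 24 had 5 such genes and each other library 0 to 2. The limits were set after IRS4 had been chosen, so the value places IRS4 among the genes and tests nothing.

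Another growth hormone axis gene, GHR, the growth hormone receptor whose signalling induces IGF1 in liver, averaged 143 ± 21.2 CPM in sham, 126 ± 21.4 in acellular, 113.1 ± 36.3 in control and 93.2 ± 28 in PLATE. IGF2R, the receptor that clears IGF2, averaged 64.5 ± 10.2 CPM in PLATE, 55.1 ± 5.04 in sham, 49.9 ± 11.6 in acellular and 49.6 ± 11 in control. PAPPA, the protease of IGFBP4, averaged 4.5 ± 1.68 CPM in sham, 5.64 ± 2.43 in acellular, 5.85 ± 2.13 in PLATE and 4.8 ± 3.79 in control. These 3 genes were chosen after their values were seen.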
